A study of Mus musculus with 86 samples.

Results

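Ureteric bud cells and induced nephron cells of the embryonic mouse kidney were set side by side in 18 single cells of 86, selected on the measured levels of 4 genes. A bud cell was any cell with an RPKM (reads per kilobase of gene, scaled to the mapped reads of the cell) of at least 100 for Mal2, which encodes a membrane protein of apical transport, and 7 cells met this. An induced cell had Mal2 below 100 and at least 2 of Wnt4, Lhx1 and Pax8, genes that switch on when nephron progenitors begin to form a nephron, at an RPKM of at least 1, and 11 cells met this. The other 68 cells are called the remaining cells. The 4 genes are left out of every comparison. The 7 bud cells had a Mal2 RPKM from 1219 upwards and the highest value in any other cell was 3.41, so no cell lay near that limit. The rule for induced cells was closer: the lowest second-highest value of the 3 genes was 1.17 in an induced cell, the highest was 0.495 in a remaining cell, and 17 remaining cells had 1 of the 3 genes. All 3 genes were present in 5 induced cells. Of the bud cells, 6 carried at least 1 of the 3 genes and 2 carried at least 2, with Pax8 at 42.4 RPKM in cell 47 and 32.8 in cell 57, and Lhx1 at 28.5 in cell 3.

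The ureteric bud grows out of the Wolffian duct as a tube that is already an epithelium, and it branches to make the collecting ducts. Nephrons come from the cap mesenchyme around its tips: signals from the bud induce these progenitors to gather into a pretubular aggregate and then to turn into an epithelial renal vesicle. Both lineages thus end as epithelia, by different routes, and both use transcription factors such as Pax2, Pax8 and Lhx1.

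The cells came from metanephroi of wild-type mice of mixed background at 12.5 days post coitum (Theiler stage 20), from embryos of both sexes. Kidneys were pooled and taken apart with trypsin, and a Fluidigm C1 chip then held each cell in a chamber of its own for full-length cDNA synthesis. All cells are therefore 1 sample, and they were sorted into groups by their own measured values. Everything below describes these cells: no test was made, SD is the spread between cells, and no p-value is given. Bud cells had from 5966 to 6978 genes detected (RPKM of at least 1; median 6488), induced cells from 5582 to 6990 (median 6702) and remaining cells from 3458 to 7100 (median 6091). The read depth is unknown. The chambers were inspected by microscope, per the labels' protocols, and no doublet caller was run.

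The label of the bud cells was borne out by its markers. Calb1, which encodes the calcium-binding protein calbindin of collecting duct cells, was between 315 and 1424 RPKM in the 7 bud cells, and no induced cell was above 1.05. All 7 ureteric bud markers present in the table were detected in bud cells. The induced cells carried all 7 of their markers in the table, each in at least 1 cell, and 3 of these had chosen them. By the same count, bud cells carried 6 of the 7 induced markers and induced cells 3 of the 7 bud markers. The word epithelium in the label of the induced cells was borne out in 1 cell. Cdh1 (E-cadherin) was detected in all 7 bud cells, in 1 of 11 induced cells (exact Clopper-Pearson 95% interval of that share 0.230 to 41.3%, counting error only) and in none of 68 remaining cells. Epcam, a surface protein of most epithelia, was detected in 6 bud cells, 2 induced cells and 7 remaining cells. They are called induced cells here, and 7 of the 11 still carried Six2, the transcription factor that keeps nephron progenitors uncommitted.

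RNA of nephron progenitor and stroma markers was present in both groups, and the progenitors are the source of induced cells. The 5 nephron progenitor markers (Six2, Cited1, Osr1, Eya1 and Meox1) summed to between 0.511 and 126 RPKM in bud cells, between 0.281 and 238 in induced cells and between 0 and 814 in remaining cells; Cited1 was detected in no bud cell, the other 4 in some bud cell and all 5 in some induced cell. The 6 stroma markers summed to between 0.331 and 223 RPKM in bud cells, between 1.72 and 257 in induced cells and between 0.544 and 915 in remaining cells, with Dcn detected in no bud cell, the other 5 in some bud cell and all 6 in some induced cell. Emcn, the only endothelial marker of 5 in the table, was at 36.6 RPKM in bud cell 20 and at 0 in the other bud cells and in every induced cell. The part of such RNA in the differences below was not tested, but values with bud cells 3 and 74 alone, which carry little of it, are given beside the renal vesicle, BMP and mesenchymal lists. Those 2 cells were chosen after the values were seen, by summed progenitor and summed stroma markers under 10 RPKM each. They therefore say nothing independent of the progenitor and stroma lists. Nor are they independent for genes of other lists that the remaining cells carry. Tcf21 of the mesenchymal list averaged 106 RPKM in remaining cells, and Id1 of the BMP list 79.3.

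A ratio here is the log2 ratio of (mean RPKM + 1), bud over induced, so a positive value means higher in bud cells. It was read for 5469 genes whose average in the higher of both groups was 10 RPKM or more, with 50% or more of its cells detected. Of these, 237 (4.33%) were at least 4-fold higher in bud cells and 183 (3.35%) at least 4-fold lower, 420 (7.68%) in all. Separation cell by cell was rarer and almost wholly on one side: in 23 genes (0.421%) every bud cell lay above every induced cell, and in 1 gene (0.0183%) every bud cell lay below. That gene is Dpysl2, which encodes a microtubule-binding protein: it was between 308 and 436 RPKM in bud cells and between 446 and 639 in induced cells, a ratio of -0.46. The 23 genes were Gata3, Rprm, Wfdc15b, Esrp1, Calb1, Plac8, Tbx3, Cldn3, Mia1, Aldh1a3, Cdh3, Ap1m2, Sim1, Ros1, Kitl, Cldn7, Slc7a8, Krt8, Cldn8, Lix1, Cldn6, H2-DMb1 and Dtx4. In some of the 23, such as Ap1m2 and Dtx4, the lowest bud cell was below the detection limit, at 0.339 and 0.125 RPKM. The counts of 23 and 1 are not like for like. A higher gene had to be above 0 in 7 bud cells and a lower gene in 11 induced cells. No gene present in all induced cells and absent from all bud cells was found among the genes read.

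**Figure D1:**
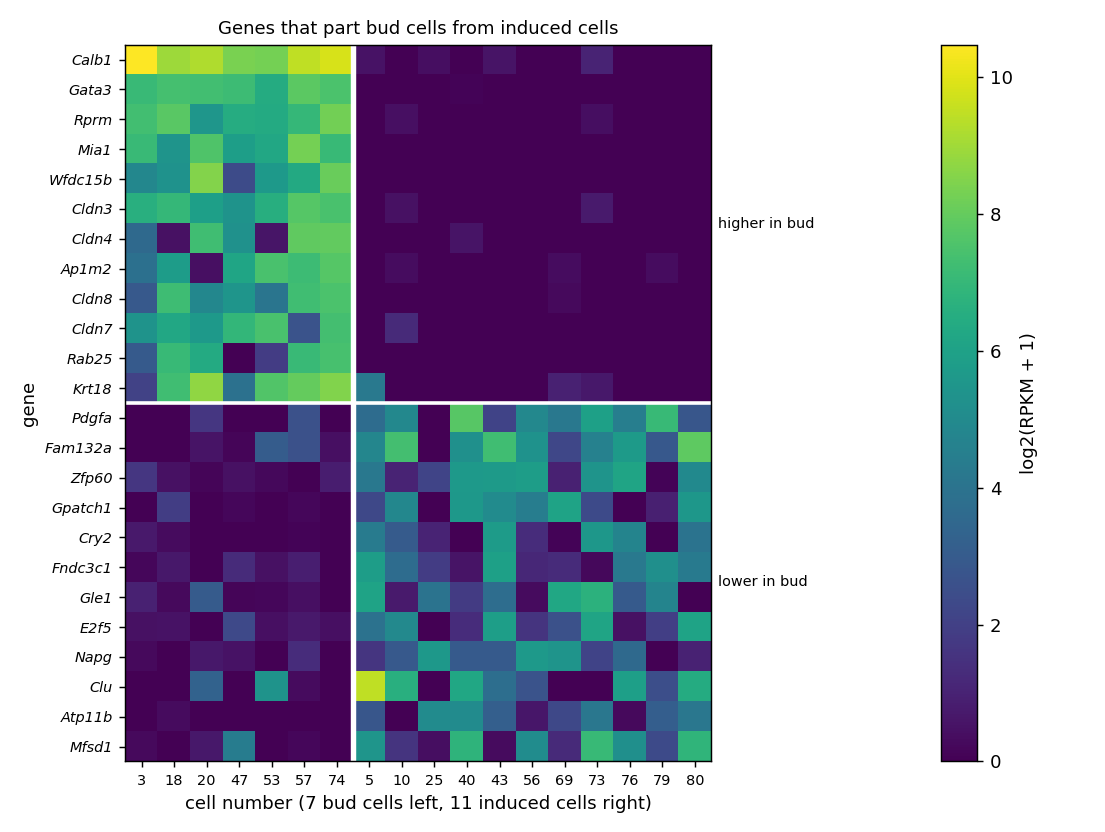
Heat map of log2(RPKM + 1) for the 12 highest and 12 lowest named genes (rows, split by the horizontal white line) in the 7 bud cells (left of the vertical white line) and 11 induced cells (right). The upper genes fill nearly every bud cell and are dark in nearly every induced cell, while the lower genes are patchy among induced cells; Calb1 in bud cell 3 is the brightest square, at 1424 RPKM.

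The 12 genes with the highest ratios by the naming rule held a calcium-binding protein, a transcription factor, a cell-cycle inhibitor, secreted proteins, claudins, trafficking proteins and a keratin. Calb1 (chromosome 4, 15808411 to 15833856, coordinates of the mm9 build as deposited) had 1424, 490.2, 594, 330.5, 315, 719 and 927 RPKM in bud cells 3, 18, 20, 47, 53, 57 and 74, and in induced cells its lowest, median and highest values were 0, 0 and 1.05. The groups did not overlap, with means of 686 ± 391 and 0.203 ± 0.336 RPKM (SD, n = 7 bud and 11 induced cells) and a ratio of 9.16. Gata3 (chromosome 2, 9778705 to 9800227), the zinc-finger transcription factor that the Wolffian duct and ureteric bud require, had 137, 166, 156, 144, 85.4, 225 and 182 RPKM in the same bud cells. A single induced cell was above 0, at 0.0751 RPKM. The ratio was 7.29, and the SD between bud cells was 42.9 around a mean of 156 RPKM. It was also detected in 10 of 68 remaining cells, the highest at 96.5 RPKM, so it was not limited to the bud in this series. Rprm, which encodes the cell-cycle inhibitor Reprimo, was between 44.8 and 305 RPKM in bud cells and at most 0.336 in induced cells (ratio 7.13).

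Mia1, which encodes a small secreted protein, and Wfdc15b, of the whey acidic protein family, were listed at 0 in all 11 induced cells, so they are given with no ratio. Mia1 was between 42.2 and 311 RPKM in bud cells, and Wfdc15b between 4.22 and 371. Each was detected in 1 of 68 remaining cells. Aldh1a3, a retinoic acid-making enzyme (3.25 to 116 RPKM in bud cells), and Slc7a8, an amino acid transporter (0.671 to 97.1), were likewise at 0 in every induced cell. Kitl, the ligand of the receptor Kit, was between 15.1 and 242 RPKM in bud cells and between 0 and 5.04 in induced cells (ratio 5.16), without overlap. Plac8 was between 22.1 and 269.7 RPKM in bud cells, against at most 7.38 in induced cells. Aldh1a3, Slc7a8, Kitl and Plac8 were singled out after their values were seen, as members of the 23.

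Junction and polarity genes were mostly higher in bud cells, among them the claudins, the proteins that seal tight junctions. Of 23 members that averaged 1 RPKM or more in bud or induced cells, 21 were higher in bud cells and 2 lower, with a median ratio of 3.05; over all 10995 genes at that level, 5159 were higher and 5836 lower, and the median was -0.06. Of the 15 members that met the limits above, 11 were at least 4-fold higher, against 4.33% of all genes. Cldn3 was between 40.8 and 212 RPKM in bud cells and at most 0.678 in induced cells (ratio 6.73). Cldn7 had 40.6, 77.4, 48.2, 122, 177, 5.42 and 161 RPKM in bud cells 3, 18, 20, 47, 53, 57 and 74, against a highest value of 1.35 in induced cells (ratio 6.34). Cldn8 was between 6.59 and 179 RPKM in bud cells and at most 0.190 in induced cells (ratio 6.34). Cldn4 was less even: 11.1, 0.400, 154, 38.6, 0.523, 242 and 251 RPKM in the same order, so bud cell 18 lay within the range of the induced cells, whose highest value was 0.476, and bud cell 53 just above it (ratio 6.59).

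Keratins, intermediate filaments of simple epithelia, followed the claudins. Krt8 was between 41.0 and 107 RPKM in bud cells and at most 0.328 in induced cells (73.5 ± 22.2 against 0.0514 ± 0.116, SD; ratio 6.15). Its partner Krt18 was between 3.24 and 428 RPKM in bud cells and overlapped the induced cells only through induced cell 5, at 17.8 RPKM (ratio 6.20, and 7.45 without cell 5). Both keratins have processed pseudogenes in the mouse genome, so their reads may be split between copies. Krt7 was at 0 in every induced cell and detected in 4 of 7 bud cells. Epcam had 300.5, 42.2, 171, 0.196, 152, 222 and 145 RPKM in bud cells 3, 18, 20, 47, 53, 57 and 74, and reached 34.8 and 10.7 RPKM in induced cells 5 and 69 (ratio 4.84, and 6.14 without cell 5). Bud cell 47 was the exception, at the level of the induced cells without Epcam, although Cdh1 was at 36.2 RPKM in that cell.

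Cdh1 itself was lower than many of its partners. It had 28.8, 63.6, 3.81, 36.2, 10.1, 7.62 and 2.10 RPKM in bud cells 3, 18, 20, 47, 53, 57 and 74, against 19.1 in induced cell 5 and at most 0.0952 in the other 10 induced cells. The means were 21.7 ± 22.5 and 1.74 ± 5.75 RPKM (SD), a ratio of 3.05, or 4.49 without cell 5. Cdh3 (P-cadherin) was between 1.54 and 35.7 RPKM in bud cells and at most 0.648 in induced cells (ratio 4.05), and Cdh16 (kidney-specific cadherin) was detected in 6 of 7 bud cells and in no induced cell (ratio 4.58). Crb3, an apical polarity protein, was detected in 6 of 7 bud cells and in induced cell 5, and in no remaining cell (ratio 4.79). Polarity and scaffold genes of broader use hardly differed: the tight junction scaffold Tjp1 had a ratio of 0.35, Pard3 0.15 and Mpp5 -0.04, with Mpp5 at 18.0 ± 21.2 RPKM in bud cells and 18.5 ± 19.0 in induced cells (SD).

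Adjacent claudin genes on chromosome 17 behaved differently. Cldn6 (23816332 to 23819414) was between 134 and 403 RPKM in bud cells and in no remaining cell above 0.533. In induced cells it was present in 3 of 11, at 21.6 RPKM in cell 5, 53.3 in cell 43 and 60.4 in cell 79, and at most 0.596 in the other 8. Means were 279 ± 86.9 RPKM in bud cells and 12.4 ± 22.9 in induced cells (SD), a ratio of 4.38, or 5.02 without induced cell 79, and bud and induced cells did not overlap. Cldn9 (23819551 to 23820993) lies next to it and had 49.6 ± 44.1 RPKM in bud cells, 53.0 ± 52.4 in induced cells and a mean of 61.0 in remaining cells (ratio of bud over induced -0.10). Claudins are a family of similar sequences, and how the authors treated reads that match several genes is not given in the sources used here.

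Genes of epithelial trafficking, splicing and surface proteases went the same way: all 13 members at the level above were higher in bud cells, with a median ratio of 3.98, and 5 of the 9 that met the limits were at least 4-fold higher. Ap1m2, the epithelial subunit of the adaptor that sorts proteins to the basolateral membrane, was between 13.6 and 207 RPKM in 6 bud cells but 0.339 in bud cell 20, against at most 0.282 in induced cells (ratio 6.49). Rab25, a GTPase of apical recycling, was between 2.68 and 171 RPKM in 6 bud cells, 0 in bud cell 47 and 0 in all induced cells. Esrp1, which directs epithelial splicing, was between 0.392 and 75.9 RPKM in bud cells and 0 in all induced cells. Erbb3, a growth factor receptor singled out after its values were seen, was detected in 6 of 7 bud cells, 0 of 11 induced cells and 0 of 68 remaining cells (ratio 4.05). The trafficking median depends on how low values are treated: averaging log2 values gave 2.46, and a pseudocount of 0.1 in place of 1 gave 6.24.

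Promoters of these epithelial genes are shown because many hold the letters CAGGTG, an E-box of the kind that the mesenchymal repressors Snai1, Snai2, Zeb1 and Zeb2 are known to bind. The search was chosen after the values were seen and covered both strands of the window from 250 bases before to 50 bases after each gene's start (RefSeq, build GRCm38.p6). Among all 27025 windows, 5413 (20.0%) held it. Of 37 epithelial list genes in the table, 25 matched a window and 19 of these (76.0%) held it. Another set held 125 genes with a higher mean in bud cells, of 10 RPKM or more. They were detected in at least 70% of bud cells and at most 30% of induced cells. Of these, 93 matched a window and 33 (35.5%) held the letters. The set overlaps the epithelial lists, since Cldn3, Cldn4, Epcam and Krt8, among others, are counted in both shares, so the shares are not independent. Of the 64 genes with the opposite pattern, 43 matched and 5 (11.6%) held them. Of the 14 genes of the mesenchymal list, 9 matched and 3 (33.3%) held it. A match describes letters only, and binding was not measured. In the windows below, each written 5′ to 3′ on the gene's strand, capitals mark CAGGTG or its complement CACCTG, whose first bases lie at -14 and 12 from the start site in Cldn4, -187 and -19 in Epcam, -111 in Krt8, and -150 and 2 in Wfdc2.
Cldn4 (chr5:134946885-134947184, minus strand): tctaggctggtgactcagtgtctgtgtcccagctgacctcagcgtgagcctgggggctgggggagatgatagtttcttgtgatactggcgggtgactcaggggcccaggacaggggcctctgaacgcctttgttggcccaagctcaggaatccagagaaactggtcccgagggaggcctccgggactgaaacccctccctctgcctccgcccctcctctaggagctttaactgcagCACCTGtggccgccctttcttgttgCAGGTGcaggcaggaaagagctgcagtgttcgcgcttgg
Epcam (chr17:87635729-87636028, plus strand): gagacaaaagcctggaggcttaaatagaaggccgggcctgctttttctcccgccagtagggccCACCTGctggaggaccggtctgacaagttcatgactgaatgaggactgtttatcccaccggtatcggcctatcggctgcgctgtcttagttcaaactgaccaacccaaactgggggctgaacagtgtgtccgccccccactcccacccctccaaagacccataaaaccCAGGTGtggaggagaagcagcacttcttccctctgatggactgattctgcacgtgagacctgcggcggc
Krt8 (chr15:102004293-102004592, minus strand): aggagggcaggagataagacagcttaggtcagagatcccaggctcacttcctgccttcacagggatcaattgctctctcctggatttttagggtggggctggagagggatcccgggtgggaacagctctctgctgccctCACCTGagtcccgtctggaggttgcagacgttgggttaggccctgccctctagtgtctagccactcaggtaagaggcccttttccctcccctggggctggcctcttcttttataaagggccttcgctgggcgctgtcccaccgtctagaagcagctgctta
Wfdc2 (chr2:164562465-164562764, plus strand): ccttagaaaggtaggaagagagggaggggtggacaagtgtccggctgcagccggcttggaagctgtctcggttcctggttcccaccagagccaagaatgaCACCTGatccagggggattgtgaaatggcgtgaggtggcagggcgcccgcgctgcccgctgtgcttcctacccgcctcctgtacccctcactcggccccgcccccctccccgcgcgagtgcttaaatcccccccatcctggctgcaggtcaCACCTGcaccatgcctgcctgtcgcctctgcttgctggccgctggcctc
The motif AACCGGTT, of the grainyhead type of epithelial factor, was in 41 of all 27025 windows (0.152%). It was in none of the 93 windows of genes higher in bud cells and in 1 of the 43 of genes lower in them (2.33%). A motif this rare cannot be compared in sets of such size.

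Several transcription factors of the bud parted the groups. Sim1, a basic helix-loop-helix factor, had 10.2, 9.01, 4.65, 18.0, 4.18, 37.3 and 7.65 RPKM in bud cells 3, 18, 20, 47, 53, 57 and 74, and at most 0.168 in induced cells (ratio 3.78). Tbx3, a T-box factor, was between 8.98 and 38.2 RPKM in bud cells and at most 0.0966 in induced cells (ratio 4.51). Tfap2a and Tfap2b, the AP-2 factors, were detected in 6 and 4 bud cells and listed at 0 in all induced cells. Emx2, a homeobox factor that the bud needs to induce nephrons, was between 1.59 and 73.3 RPKM in bud cells, 19.1 in induced cell 5 and 1.37 in induced cell 80, and at 0 in the other 9 (ratio 3.23, and 4.56 without cell 5). Pou3f3, a POU factor of later nephron segments, was between 1.35 and 15.8 RPKM in bud cells and at 9.46 in induced cell 5, with 0.166 as the next value (ratio 2.04, and 2.92 without cell 5).

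Pax2, a paired-box factor known from both lineages, was sparse. It was detected in 3 of 7 bud cells, 5 of 11 induced cells and 11 of 68 remaining cells, with means of 3.00 ± 4.42 RPKM in bud cells, 7.40 ± 16.6 in induced cells (SD) and 0.404 in remaining cells. The groups overlapped, so Pax2 did not part bud from induced cells in these data. As a list, 7 of 13 renal epithelial transcription factors were higher in bud cells and 6 lower, with a median of 0.34; without induced cell 5 the median was 1.85.

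Genes of the bud tip, where branching takes place, and of the trunk behind it were nearly all higher in bud cells. All 8 tip genes were higher (median 2.17), with 3 of 6 at least 4-fold higher. The receptor Ret, through which the bud senses its growth factor Gdnf, had 2.09, 2.96, 6.10, 11.7, 0, 1.92 and 18.4 RPKM in bud cells 3, 18, 20, 47, 53, 57 and 74, at most 0.0807 in induced cells and at most 0.0504 in remaining cells (ratio bud over induced 2.83). Its co-receptor Gfra1 was between 26.4 and 114 RPKM in bud cells and was also detected in 5 induced cells, up to 60.7 (ratio 1.96). Wnt11, a ligand made at tips, was detected in 4 bud cells and in no induced cell (ratio 3.14). On the trunk list, 5 of 6 were higher (median 3.44), and Gata2 was the exception (ratio -2.30), at 8.76 RPKM in bud cell 53 and 106 in induced cell 43. That ratio rests on induced cell 43, since without it the direction turned, at 0.57.

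FGF and RET pathway genes were mixed. Dusp6, a phosphatase that FGF signalling switches on, had 222, 207, 250.4, 91.6, 88.0, 298 and 256 RPKM in bud cells 3, 18, 20, 47, 53, 57 and 74, and a lowest, median and highest of 0.737, 19.5 and 161 in induced cells (202 ± 81.6 against 38.3 ± 50.9, SD; ratio 2.37). The groups overlapped through induced cells 25 and 69. Etv5, a transcription factor downstream of Ret, was between 13.1 and 319.8 RPKM in bud cells and between 0 and 107 in induced cells (ratio 2.20, 1.55 without bud cell 74 and 2.92 without induced cell 69). The pathway inhibitor Spry2 had a ratio of 1.56 and Spry1 0.52, or 0 when log2 values were averaged. Fgf10 averaged 4.17 RPKM in bud cells and 25.1 in induced cells (ratio -2.33, and -3.05 without bud cell 47). Gdnf averaged 0.907 and 15.7 (-3.13, and -2.34 without induced cell 25, -3.81 without bud cell 20), and the receptor Fgfr2 5.38 and 17.4 (-1.52). The ligand Fgf9 was detected in only 1 bud cell and 2 induced cells, at means of 2.53 and 0.767 RPKM (1.00, but 0.19 when log2 values were averaged). Over the list, 8 of 13 were higher and 5 lower, with a median of 1.00 that was 0.19 when log2 values were averaged instead.

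Wnt response genes were mixed. Tcf7, a transcription factor of the pathway, was between 1.07 and 79.0 RPKM in 6 bud cells and 0 in bud cell 53, against at most 5.18 in induced cells (ratio 3.63). Rnf43, a feedback inhibitor, was detected in 4 bud cells and in no induced cell (ratio 2.16), while Lef1 had 3.54 ± 2.61 and 4.26 ± 5.85 RPKM (SD; ratio -0.21). The list had 9 of 14 higher and a median of 0.82. In the basement membrane list 9 of 19 were higher and 10 lower, with a median of -0.02. Its ends were far apart: Npnt (nephronectin), the ligand that signals to the mesenchyme through integrin α8, averaged 36.3 RPKM in bud cells and 0.412 in induced cells (ratio 4.72), and Itga8, which encodes that integrin, 0.707 and 10.5 (-2.75, and -3.35 without bud cell 47). Lama5 was between 1.62 and 22.7 RPKM in bud cells and at most 0.955 in induced cells (ratio 3.15), and Frem2 between 11.5 and 67.5 in bud cells and at most 12.5 in induced cells (ratio 3.22). The collagen Col4a1 was alike in its mean, at 19.9 ± 21.0 and 20.3 ± 18.8 RPKM (SD).

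None of the 12 genes named as lowest in bud cells was detected in all 11 induced cells. Pdgfa (chromosome 5, 139452929 to 139470907), a growth factor for stromal cells, was at 2.17 and 5.12 RPKM in bud cells 20 and 57 and at 0 in the other 5. In induced cells its lowest, median and highest were 0, 21.3 and 213, with 10 of 11 detected (1.04 ± 1.97 against 47.5 ± 66.4, SD; ratio -4.57, -5.16 without bud cell 57 and -3.97 without induced cell 40). It was detected in 19 of 68 remaining cells. Fam132a, which encodes a secreted C1q-like protein, averaged 1.88 RPKM in bud cells and 66.5 in induced cells (ratio -4.55). Clu (clusterin), a secreted chaperone, was at 41.1 and 8.80 RPKM in bud cells 53 and 20 and at most 0.229 in the others, and in induced cells it ran up to 716 in cell 5, with a median of 12.9 (ratio -3.57, -2.10 without induced cell 5 and -5.28 without bud cell 53). The E2F-family factor E2f5 had a ratio of -3.66 and the clock gene Cry2 -3.85, with Cry2 at most 0.636 RPKM in bud cells and detected in 8 of 11 induced cells. Zfp60 (-4.27), Gpatch1 (-4.04), Fndc3c1 (-3.75), Gle1 (-3.68, and -4.49 without bud cell 20), Napg (-3.62), Atp11b (-3.56) and Mfsd1 (-3.47, and -5.27 without bud cell 47) completed the 12. Cry2 and these 7 genes were each detected in 23 to 47 of the 68 remaining cells.

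Genes of the pretubular aggregate and renal vesicle, beyond the 3 that chose the cells, were lower in bud cells in 13 of 17 cases and higher in 4, with a median of -1.21 (-2.93 with bud cells 3 and 74 alone). Against the remaining cells, the median ratio was 0.15 for bud cells and 1.50 for induced cells; both ratios use the same remaining cells. Npy, which encodes neuropeptide Y, was listed at 0 in all bud cells and detected in 5 induced cells, with a highest value of 191 RPKM in cell 5. Osr2, a zinc-finger factor, was detected in no bud cell, 5 of 11 induced cells and 2 of 68 remaining cells, at 87.6, 17.0, 46.4, 23.4 and 1.20 RPKM in induced cells 5, 10, 43, 56 and 73 (ratio -4.04, and -3.25 without cell 5). The Notch ligand Dll1 was at 132, 23.4, 5.42 and 12.2 RPKM in induced cells 5, 25, 76 and 80 and at most 0.138 in any bud cell (ratio -4.04, and -2.32 without cell 5). Cdh6, a cadherin of early nephrons, was detected in 1 bud cell and 4 induced cells, at 33.6, 2.21, 56.0 and 38.0 RPKM in cells 5, 43, 69 and 73 (ratio -3.07, and -2.46 without cell 69). Bmp2 was detected in 1 bud cell, 7 induced cells and 8 remaining cells (ratio -2.55, and -3.68 without bud cell 47). Clec18a, singled out after its values were seen, was at 0 in all bud cells and detected in 7 of 11 induced cells and 1 of 68 remaining cells.

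Notch and BMP pathway genes were mostly lower in bud cells. Notch2 had 12.7, 5.72, 4.86, 8.11, 1.13, 7.18 and 3.54 RPKM in bud cells 3, 18, 20, 47, 53, 57 and 74, against a lowest, median and highest of 8.66, 20.3 and 27.4 in induced cells (6.19 ± 3.70 against 17.7 ± 6.14, SD; ratio -1.38). Only bud cell 3 lay within the range of the induced cells. The Notch target Hey1 reached 49.0 RPKM in bud cell 53 and at most 7.14 in the other bud cells, while in induced cells the median was 57.7 and the highest 241 (ratio -2.79, and -4.50 without bud cell 53). Another target, Hes1, averaged 9.38 ± 6.37 and 8.28 ± 7.48 RPKM (SD; ratio 0.16). In the Notch list 7 of 9 were lower (median -0.78). In the BMP list 11 of 13 were lower (median -1.46, and -2.91 with bud cells 3 and 74 alone), among them the BMP response genes Id1 (22.2 ± 34.6 against 162 ± 135 RPKM, SD; -2.82, and -3.56 without bud cell 47), Id2 (-1.46) and Id3 (-1.48). Id1 was detected in 3 of 7 bud cells and all 11 induced cells. The exceptions were the ligand Bmp7 (31.9 against 9.66 RPKM; 1.62) and the receptor Bmpr1b (18.5 against 1.69; 2.86, and 4.19 without induced cell 40).

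Nephron progenitor and stroma genes lay lower in bud cells too, though not evenly. Of 22 progenitor genes 20 were lower (median -1.0, and -0.06 against the 4 induced cells without Six2). Cited1 was at most 0.751 RPKM in bud cells and up to 123 in induced cells, with 6 of 11 detected (ratio -4.43). Six2 was at 18.6, 12.1 and 50.4 RPKM in bud cells 18, 47 and 57 and averaged 11.6 ± 18.6 RPKM in bud cells and 15.7 ± 15.9 in induced cells (SD; ratio -0.40), so it did not part the groups. Of 16 stroma genes 15 were lower (median -1.39, and -0.27 with induced cells chosen at an RPKM of 10), with Dcn and Postn at most 0.388 and 0.137 RPKM in any bud cell. Mesenchymal adhesion and transcription genes were lower in 12 of 13 cases (median -1.76, and -3.15 with bud cells 3 and 74 alone). Tcf21, a mesenchymal factor, was detected in 3 of 7 bud cells and all 11 induced cells (10.1 ± 18.2 against 82.3 ± 57.4 RPKM, SD; -2.91, and -4.20 without bud cell 57). N-cadherin (Cdh2) averaged 8.67 RPKM in bud cells and 31.8 in induced cells (-1.76). Vim (vimentin) ran from 0.740 to 184 RPKM in bud cells and from 0 to 296 in induced cells (-0.32; 0.84 when log2 values were averaged).

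Hoxa and Hoxc genes lay lower in bud cells and Hoxb and Hoxd genes were divided, which was seen after the values were known. All 5 Hoxa members and all 5 Hoxc members at the level above were lower in bud cells. Of these, Hoxc5 and Hoxc11 were each detected in only 1 induced cell and no bud cell. In the other clusters 2 of 4 Hoxb and 4 of 7 Hoxd members were higher. Averaging log2 values gave the same counts. Over all 10995 genes at that level, 5159 were higher and 5836 lower. Hoxb7, widely used to drive transgenes in the bud, was between 24.5 and 146 RPKM in 6 bud cells and 0.571 in bud cell 18, and was also detected in 8 of 11 induced cells, up to 51.8 (ratio 1.72). Hoxd8 was between 39.1 and 148 RPKM in 6 bud cells and 0 in bud cell 53, against 75.0 and 41.8 in induced cells 10 and 76 and at most 1.25 in the others (ratio 2.59, and 3.72 without induced cell 10). Hoxc10 averaged 11.8 and 49.2 RPKM (-1.97) and Hoxd10 5.76 and 29.3 (-2.17, and -2.83 without bud cell 47).

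Of the cell-cycle lists, G2/M genes had 13 of 17 higher in bud cells, with a median of 0.19 and none past 4-fold. That median was 1.38 with induced cells without Six2 and -0.03 with induced cells that have all 3 genes. In the S phase list 12 of 13 were lower (median -0.83), with Cdc6 at 8.39 and 36.6 RPKM (-2.0, and -3.21 without bud cell 20) and Pcna at 207 ± 249 and 398 ± 254 RPKM (SD; -0.94). Of 8 immediate early genes 6 were lower (median -0.69), with Fos at 21.9 ± 32.0 and 127 ± 133 RPKM (SD; -2.48, and -3.35 without bud cell 53).

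What the groups shared was sought as genes high in each of them over the remaining cells. Both ratios use the same 68 remaining cells, so their likeness is not a result, and each is given on its own. A gene was open to this search if it averaged 10 RPKM or more and was detected in 50% or more of the cells of both groups, and 3869 genes were. The 12 with the highest smaller ratio were 1500016L03Rik, Wfdc2, Smtnl2, Ezr, Jag1, Clcn3, Lsr, Fam176a, Ccnd1, Bex4, Ddi2 and Spint2.

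**Figure D2:**
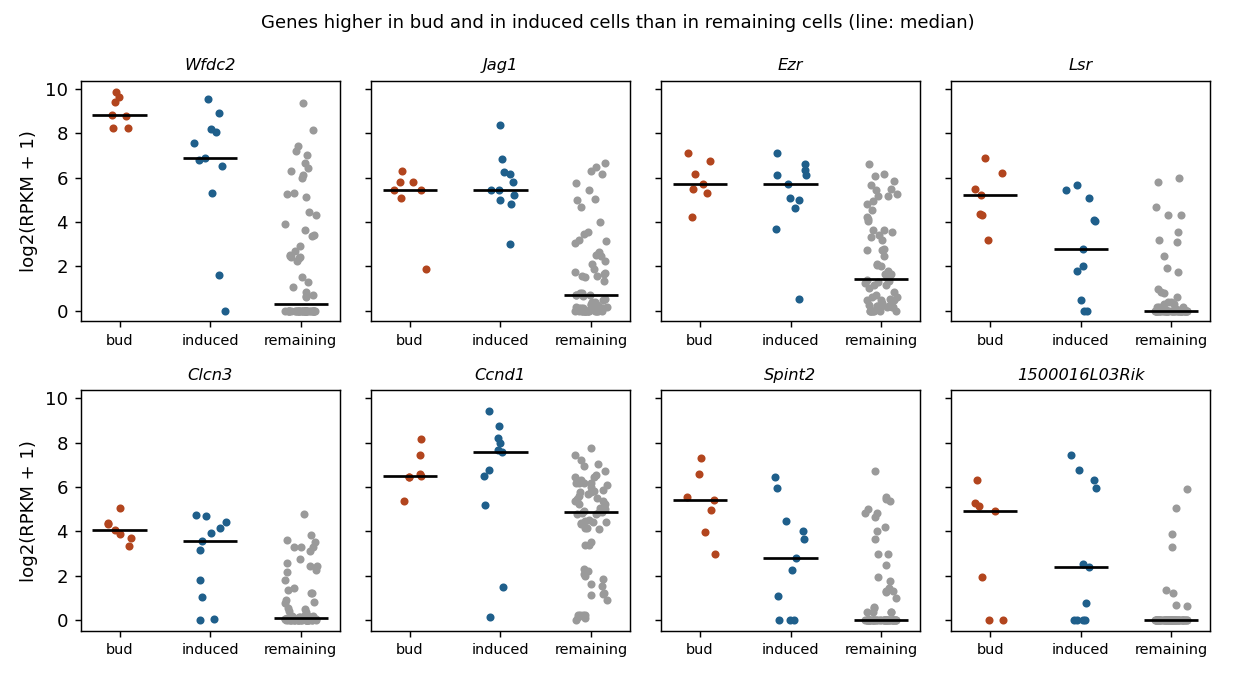
Values of 8 of the 12 shared genes as log2(RPKM + 1), 1 point per cell, in bud (n = 7), induced (n = 11) and remaining cells (n = 68), with a horizontal line at each median and random sideways offset. Medians of the bud and induced cells lie above that of the remaining cells in each panel, while single remaining cells reach the same levels.

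Several of them encode proteins of the epithelial surface. Wfdc2, a secreted protease inhibitor of ductal epithelia, had 929, 448, 436, 304, 688, 301 and 786 RPKM in bud cells 3, 18, 20, 47, 53, 57 and 74. In induced cells the lowest, median and highest were 0, 118 and 748, and in remaining cells the median was 0.261 and the highest 665. It was present in all 7 bud, 10 of 11 induced and 30 of 68 remaining cells, with ratios of 4.18 and 2.79 over the remaining cells. Ezr (ezrin), which ties the apical membrane to actin, averaged 66.1 ± 41.4 RPKM in bud cells and 55.0 ± 40.8 in induced cells (SD), and 11.4 in remaining cells, with 7 of 7, 10 of 11 and 40 of 68 cells detected. Lsr, a protein of tricellular junctions, averaged 45.2 RPKM in bud cells, 15.2 in induced cells and 3.22 in remaining cells. Spint2, an inhibitor of surface proteases, averaged 55.7, 18.6 and 6.17 RPKM in the same order. Its median in induced cells was 5.97 RPKM, and it averaged 11.5 RPKM in the remaining cells with Six2 and without Foxd1.

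Jag1 and Ccnd1 were shared as well, and both are on the renal vesicle list. Jag1 (chromosome 2, 136907194 to 136942067), a Notch ligand, had 42.6, 41.7, 2.63, 32.9, 78.0, 54.9 and 55.0 RPKM in bud cells 3, 18, 20, 47, 53, 57 and 74, against a lowest, median and highest of 7.03, 42.6 and 335 in induced cells. All 18 cells were above the detection limit, against 29 of 68 remaining cells, whose median was 0.608. The ratios over the remaining cells were 2.14 for bud cells and 2.92 for induced cells, and the ratio of bud over induced was -0.78, within the spread of both groups. Ccnd1 (cyclin D1) averaged 122 ± 81.1 RPKM in bud cells, 209 ± 208 in induced cells (SD) and 40.8 in remaining cells (1.55 and 2.32 over the remaining cells), and it was detected in 60 of the 68 remaining cells. Clcn3, an endosomal chloride transporter, averaged 17.4, 11.3 and 1.98 RPKM in bud, induced and remaining cells.

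The genes lower in both groups than in the remaining cells included a repressor of epithelial genes. Snai2, which represses E-cadherin, was detected in 1 of 7 bud cells (20.6 RPKM in cell 57), 3 of 11 induced cells (59.5, 21.2 and 36.9 RPKM in cells 40, 73 and 76) and 51 of 68 remaining cells, with ratios of -4.06 and -2.53 over them. The secreted protease Adamts1 had a mean of 0.371, 0.864 and 20.6 RPKM in bud, induced and remaining cells. A locus of Cald1 (caldesmon, an actin-binding protein; 2 loci carry the symbol), St8sia2, AW551984, Eif4e3, S1pr2, Lhpp, Frem1, Sdc2, Gm3892 and Rab12 completed the 12. Set against the 13 remaining cells with Six2 and without Foxd1, 21 of the 24 shared genes kept a 2-fold difference in both groups. Spint2 (18.6 RPKM in induced cells and 11.5 in these cells) and Bex4 (92.5 and 55.9) did not. AW551984 turned round, with 0.25 as its ratio nearer 0.

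Of 37 epithelial list genes in the table, bud cells detected between 24 and 32 (median 26.0), induced cells between 6 and 18 (median 9.00) and remaining cells between 1 and 14 (median 6.00). Induced cell 5 had 18 and the next induced cell, 79, had 11; these cells also had the most genes detected among induced cells, 6990 and 6859. Some epithelial list genes were detected in most induced cells, such as Wfdc2 in 10, Mpp5 in 9 and Spint2 in 8 of 11. They were also detected in 30, 45 and 20 of the 68 remaining cells, so their presence does not set induced cells apart. Of 17 renal vesicle genes, bud cells detected between 5 and 10, induced cells between 4 and 13 and remaining cells between 1 and 11, and cell 5 was again the highest.

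**Figure D3:**
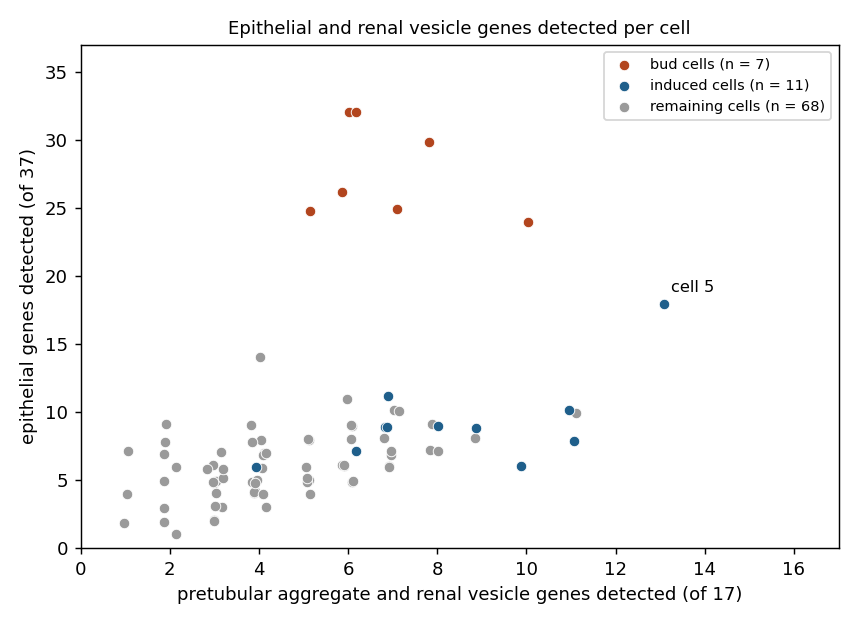
Number of epithelial genes (vertical, of 37) against number of pretubular aggregate and renal vesicle genes (horizontal, of 17) detected in each cell, for bud, induced and remaining cells, with slight random offset so that equal cells can be seen. Bud cells form a band from 24 to 32 epithelial genes, cell 5 stands alone at 18 and 13, and the other induced cells lie among the remaining cells on the vertical axis.

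Cell 5 combined epithelial genes with renal vesicle genes. Among the 11 induced cells it had the highest Cdh1, Epcam, Crb3, Emx2 and Pou3f3, and also the highest Jag1 (335 RPKM, the next 115), Dll1 (132, the next 23.4), Osr2 (87.6, the next 46.4), Npy (191, the next 98.8), Clu (716, the next 96.7) and Ccnd1 (691, the next 435). It also had the highest Pax8, Wnt4 and Lhx1, which chose the cells, at 373, 76.4 and 45.3 RPKM. Six2 was at 0.281 RPKM in it and Cited1 at 0. Several genes high in bud cells were not detected in it: Gata3, Cldn3, Cldn4, Cldn7 and Cldn8 were all at 0 in cell 5, Calb1 at 0.413 and Mal2 at 0. A single cell gives no spread.

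**Figure D4:**
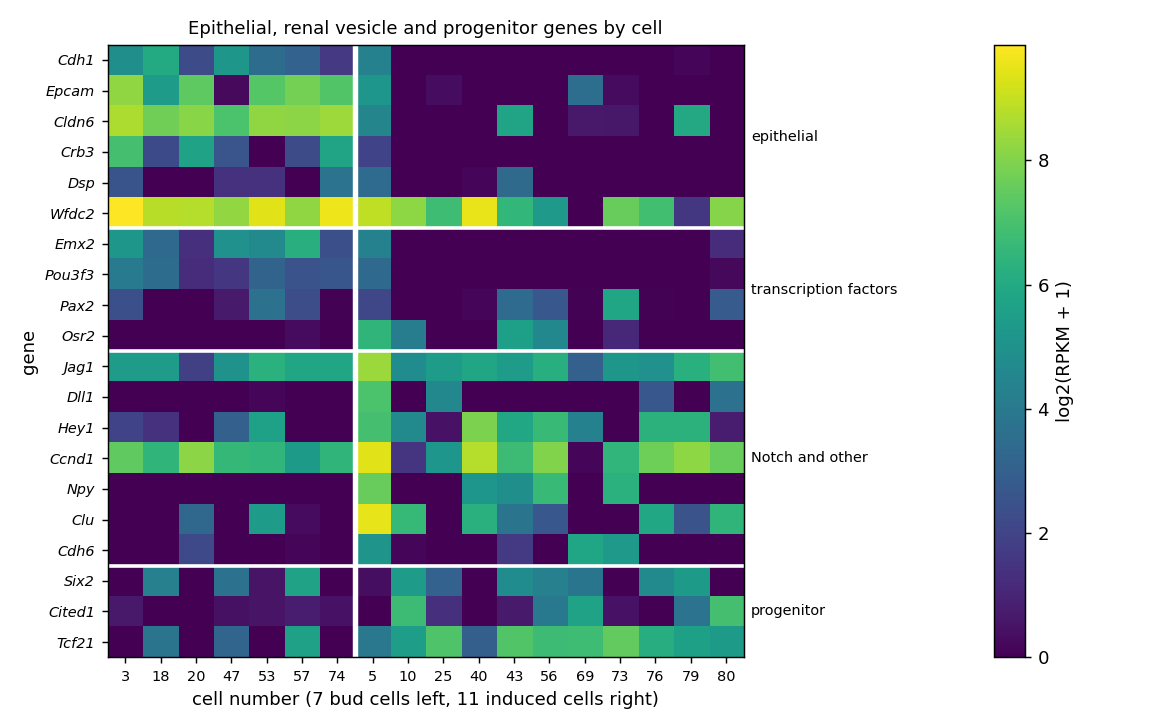
Heat map of log2(RPKM + 1) for epithelial, transcription factor, Notch and other vesicle, and progenitor genes (rows, in blocks) in 7 bud cells (left) and 11 induced cells (right). In the column of cell 5 Cdh1, Epcam, Emx2 and Pou3f3 are lit, as in many bud cells, together with Osr2, Dll1 and Npy, which are dark in the bud cells.

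The bud cells differed among themselves. Calb1, Gata3, Krt8 and Cldn6 were high in all 7, while Wnt11, Ret and Krt7 were not. Wnt11 was at 25.6, 7.44, 11.3 and 11.3 RPKM in bud cells 3, 18, 47 and 74 and at 0 in cells 20, 53 and 57. The trunk and urothelial keratin Krt7 was at 31.6, 83.5 and 39.0 RPKM in those same cells 20, 53 and 57, at 1.63 in cell 3 and at 0 in the others, so no bud cell had both genes above 1.63 RPKM. Ret went with neither wholly, since it was at 6.10 in cell 20 and 18.4 in cell 74. Other members of the tip and trunk lists were divided. Of the tip genes, Gfra1 and Etv5 were highest in cells 3 and 74 (114 and 319.8 RPKM), but Sox9 and Emx2 in cells 20 and 57 (139 and 73.3). Of the trunk genes, Gata2 was highest in cell 53 (8.76) and Tfap2a in cell 74 (7.64). The pattern of Wnt11 and Krt7 was noticed in these 7 cells and was not tested.

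**Figure D5:**
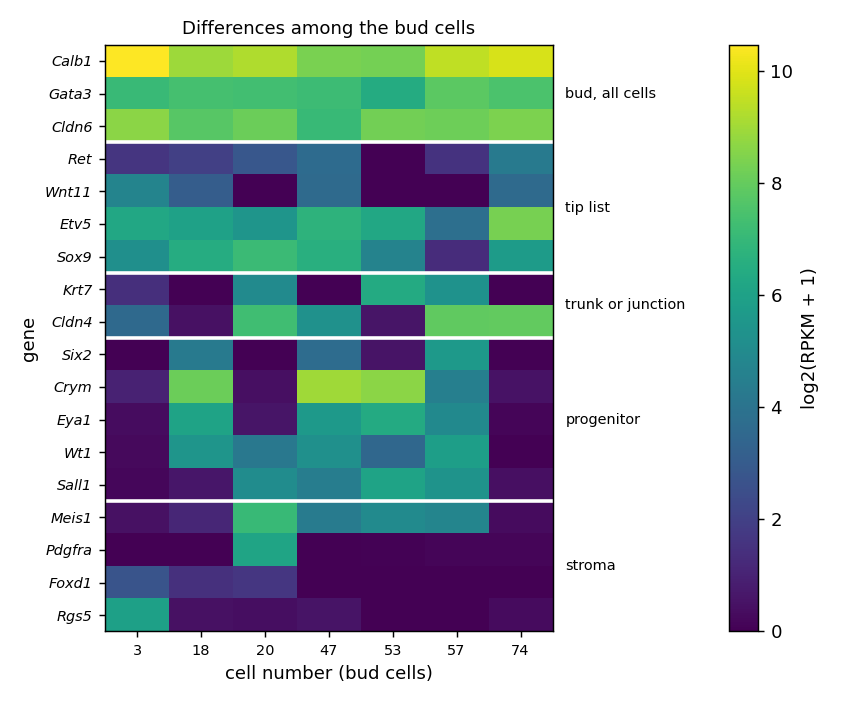
Heat map of log2(RPKM + 1) in the 7 bud cells (columns) for genes high in all bud cells, tip genes, trunk or junction genes, progenitor genes and stroma genes (rows, in blocks). Wnt11 and Krt7 are bright in different cells, and the progenitor block is dark in cells 3 and 74.

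RNA of progenitors and stroma also varied between bud cells. Cells 3 and 74 detected 2 and 1 of 22 progenitor genes, while cells 18, 47, 53 and 57 detected 13, 13, 13 and 9. Crym, a progenitor gene, was at 275, 510.3, 397 and 21.9 RPKM in cells 18, 47, 53 and 57 and at most 0.992 in cells 3, 20 and 74. Cell 20 carried the most stroma genes, 10 of 17, with Pdgfra at 68.7 RPKM and Meis1 at 132. Epithelial genes were most complete in cells 3, 20 and 74, at 32, 30 and 32 of 37, and between 24 and 26 in the other 4. Whether these cells held RNA of more than 1 cell was not tested.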

How the data were processed

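Single-cell RNA libraries of 86 cells from 1 pool of kidneys were made with the SMARTer kit on the Fluidigm C1 and sequenced on an Illumina HiSeq2500, per the labels' protocols. Per the submitters' processing notes, TopHat 1.4.1, DESeq and build mm9 were used, in roles these notes do not state; other upstream steps are not given in the sources used here. The deposited table gives the authors' RPKM of 12360 genes per cell, and a count, by the authors, of cells above an RPKM of 3, which is at least 3 for every gene. So genes below that are not analysed here. A second deposited table was not used, and a few genes are not reported here. Read totals are unknown, so no floor is given.

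The members and gene lists were chosen with earlier results of these data known. A gene was detected at an RPKM of at least 1. Means of RPKM were compared as log2 ratios with a pseudocount of 1, bud over induced, without Mal2, Wnt4, Lhx1 and Pax8. Genes were named by rule. The 12 highest and 12 lowest ratios were taken among the 5469 genes read. These 24 also had to be detected in at least 70% of the higher and at most 30% of the lower group. Named too were the 12 highest and 12 lowest shared genes, and up to 3 highest and 3 lowest members of each of 21 lists (331 entries). A further 17 genes were always named. Genes outside the rule were chosen after their values were seen: those given as such, the 23 separated genes, and list members added to describe a list. A symbol with 2 loci (26 symbols) was kept as 2 genes. Shares have exact Clopper-Pearson 95% intervals. Cells are not replicates, so no model was fitted. Python 3.11.15, numpy 2.4.6, pandas 2.3.3, scipy 1.17.1 and matplotlib 3.10.9 were used, and the ratios were tested on simulated data. Alternatives were the mean of log2 values, a pseudocount of 0.1, no filter on low values, stricter or other choices of the induced, bud and remaining cells, and leaving out each cell.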

Additional observations from a re-analysis of the deposited data

Results flagged for a closer look

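Of 100 named genes in the 7 bud cells, 23 (23.0%) had 1 cell far from the other 6 by Dixon's criterion on the log2(RPKM + 1) scale. A chance rate of about 1 in 20 holds only for normally distributed values. Some genes here were at 0 in most cells, and 1 high cell is then flagged by itself. The share of 23.0% can therefore not be read as an excess over chance. No explanation was tested, and values below are RPKM. In cell 20, Jag1 was low at 2.63 (32.9 to 78.0 in the other bud cells), as were the mitotic genes Ccnb2 at 0 (109.7 to 249) and Bub1 at 0.122 (24.0 to 125). The same cell was high for Gle1 at 7.14, Fgfr3 at 62.6, Pdgfra at 68.7, Emcn at 36.6, Tubb3 at 8.89 and Hoxc8 at 6.79, each at most 1.23 in the other 6. Cell 47 was low for Epcam at 0.196 (42.2 to 300.5) and high for Mfsd1 at 20.3, AW551984 at 25.0 and Bmp2 at 8.35. Cell 53 had Hoxd8 at 0 (39.1 to 148) and was high for Sdc2 at 25.8, Gm3892 at 12.2, Gata2 at 8.76 and Wnt5a at 52.4. Cell 18 was low for Hoxb7 at 0.571 (24.5 to 146) and high for Rab12 at 11.2. Cell 57 was high for Snai2 at 20.6 and Lhpp at 7.74. Ung was at 14.5 in cell 3. The 11 induced cells are too many for this criterion and were not screened.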

How the results depend on the processing

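No paired analysis was possible because all cells come from 1 pool and carry no replicate number that spans the groups. Read depth is unknown, single cells miss RNA by chance, and the groups rest on 7 and 11 cells of 1 pool. Of the 24 parting genes, 24 stayed past 4-fold under each change of averaging, pseudocount or cell choice and at the lowest and highest value on leaving out 1 cell, except 23 with the 4 induced cells without Six2 (Napg at -1.62). Genes at least 4-fold higher in bud cells numbered 237, and 614 with no filter on low values, 357 with the 5 induced cells that have all 3 genes, 495 with induced cells without Six2, and 576 (173 of them shared with the 237) with bud cells 3 and 74 alone; leaving out 1 cell, where 50% of a group is 1 cell fewer, gave 242 to 302. The lower genes numbered 183, and 726, 393 (induced cells without Six2) and 836 (bud cells 3 and 74; 156 shared), with 195 to 248 on leaving out 1 cell. Averaging log2 values gave counts of 271 and 166 that held 184 of the 237 higher and 96 of the 183 lower genes, and induced cells with all 3 genes held 197 and 106. List medians follow. The epithelial junction median was 2.00 with induced cells without Six2, and 2.23 (without bud cell 20) to 3.20 leaving out 1 cell. For the trafficking list, averaging log2 values gave 2.46, a pseudocount of 0.1 gave 6.24, and the median was 3.05 (without bud cell 3) to 4.24 leaving out 1 cell. The same changes gave 2.38 and 6.59 for the trunk list, and the pseudocount gave 1.38 for the Wnt list. When log2 values were averaged the FGF and RET median was 0.19, the Hox median -0.42 and the basement membrane median 0.95. The last was also 0.74 with induced cells chosen at an RPKM of 10 and 0.81 with all 3 genes, and between -0.40 and 0.99 (without induced cell 69) leaving out 1 cell, so it has no stable sign. The renal transcription factor median was between 0.21 and 1.85 (without induced cell 5) leaving out 1 cell. The G2/M median was 1.38 with induced cells without Six2 and -0.03 with all 3 genes, the progenitor median -0.06 with induced cells without Six2, and the stroma median -0.27 with induced cells chosen at an RPKM of 10 and -0.43 with all 3 genes. With bud cells 3 and 74 alone the medians were -3.15 (mesenchymal), -2.93 (renal vesicle), -3.96 (progenitor), -2.91 (BMP), -1.73 (Hox), -2.28 (immediate early) and -2.53 (stroma). These cells were chosen by low progenitor and stroma markers, so the progenitor and stroma values were set by that choice. The other lists hold genes that the remaining cells also carry, such as Tcf21, so their values are not independent of that choice. Gata2 had a ratio of -2.30, but 0.57 without induced cell 43 and 1.17 with induced cells without Six2. AW551984 had -3.07 as its ratio nearer 0, and 0.25 against remaining cells with Six2 and no Foxd1. The 5 cells of few genes are all among the remaining cells. The choice of bud cells 3 and 74 and leaving out induced cells were added after the values were seen. Causes were not tested.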
